A study of Mus musculus with 12 samples.

Results

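The jejunum of C57BL/6J (B6) mice was compared between common bile duct ligation (CBDL) and a sham operation, using the 3 B6 CBDL and the 3 B6 sham arrays, 6 of the 12 arrays of the study, chosen by their titles. The mice were males of 8 weeks, and the jejunum was taken on day 7 after surgery. For CBDL the common bile duct was freed and closed with an aneurysm clip near the duodenum, whereas sham mice had the same operation with the duct left in place and open. Both groups received isoflurane, saline and buprenorphine. The other 6 arrays hold the same operations in A/J mice. No genotype or agent other than strain and surgery separates the groups, and the labels do not say whether an array holds 1 animal or a pool, so p-values measure only the spread between these samples, which may be technical.

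Bile carries bile acids, cholesterol and phospholipid from the liver to the gut, where bile acids disperse dietary fat and allow cholesterol to be absorbed. Enterocytes, the absorptive cells of the villus, balance the sterol they take up against the sterol they make through the transcription factor SREBP2, which turns on the enzymes of cholesterol synthesis when membrane sterol is low. Bile acids also act on nuclear receptors in the gut, among them the farnesoid X receptor (Nr1h4), and receptors for foreign compounds drive a set of detoxifying cytochrome P450 enzymes in the same cells. Ligation withholds bile from the lumen and returns its contents to the blood, which brings on inflammation and an acute phase response in the liver. The comparison asks which jejunal transcripts differ when bile no longer reaches the gut.

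Values are log2 signals of 35556 probe sets, so a difference of 1 is a doubling. They ranged from 1.57 to 14.4 over the 12 arrays, with array medians of 5.36 to 5.51. The tissue label was checked against 13 enterocyte markers, whose mean was 11.66, 11.69 and 11.68 in B6 CBDL and 11.75, 11.73 and 11.70 in B6 sham. Among 8 markers that tell the jejunum from other gut segments, lactase (Lct) lay between 11.71 and 12.30. The ileal bile acid transporter Slc10a2 lay between 4.44 and 5.46. The widest range of a member of these 8 over the sham arrays was 1.98. Pancreatic acinar genes were low in every B6 array, with list means of 4.54 to 4.76 for 10 genes.

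Liver transcripts set the 3 sham arrays apart from each other. The mean of 11 hepatocyte markers was 7.16, 7.93 and 9.16 in B6 sham replicates 1, 2 and 3, against 9.36, 9.71 and 9.52 in the CBDL arrays. Over all genes, the median range over the sham arrays was 0.244 log2 units and over the CBDL arrays 0.214. A range of at least 2 was found in 67 of 19938 genes among the sham arrays, of which 56 were highest in replicate 3 and 31 belong to the 91 genes of the 3 liver lists (plasma proteins, hepatocyte enzymes, acute phase proteins). The corresponding count among the CBDL arrays was 6 genes, none of them in those lists. The sham arrays are therefore given separately for the genes described. Without sham replicate 3, 4 of the calls described next ended, those of Abcg8 and Lcn2 (both adjusted p = 0.0527), Haus7 (0.0713) and 1 probe set of Acsf2 (0.0701).

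In the fit over all probe sets, ligation was followed by changes in lipid, detoxification and inflammation genes, in a small number of probe sets. In limma, 19 of 35556 probe sets were called at 0.05 after Benjamini-Hochberg adjustment (0.0534%), 13 higher (0.0366%) and 6 lower (0.0169%) after CBDL. Of these, 15 carry 1 gene name and stand for 14 genes. In all 19 the CBDL and the sham arrays did not overlap, and 2718 probe sets had an unadjusted p under 0.05. The threshold ran close to many of them, since 16 of the 19 had an adjusted p of 0.0499. A further 55 probe sets, 27 higher and 28 lower, lay from 0.05 to 0.10. Among 19938 genes, taken by 1 probe set each, CBDL arrays lay above all sham arrays in 8.15% and below in 9.4%. An unadjusted limma p under 0.05 was found in 4.14% with a higher and 4.68% with a lower value.

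The number of calls depended on the probe sets tested and on single arrays. It was 163 with only the 21789 probe sets of 1 gene name. Without the 6617 unnamed ones numbered below the first named one, a choice made after seeing the data, it was 134. With all probe sets, it was 67 without B6 sham replicate 3, and 5 and 7 without sham replicates 1 and 2. Without B6 CBDL replicates 1, 2 and 3 it was 5, 2 and 4. Leaving out A/J arrays, which enter only through the shared estimate of spread, gave 5, 18 and 9 calls without CBDL replicates 1, 2 and 3 and 29, 3 and 5 without sham replicates 1, 2 and 3. Fitting the 6 B6 arrays alone called 1 probe set, for the pentraxin gene Apcs, with an adjusted p of 0.0294 there against 0.0592 over the 12 arrays, and none of the 19. The call of Cyp2c55 held when any of the 12 arrays was left out, whereas the other named calls ended for 8 to 11 of the 12 omissions, with limma adjusted p-values of at most 0.203.

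**Figure D1:**
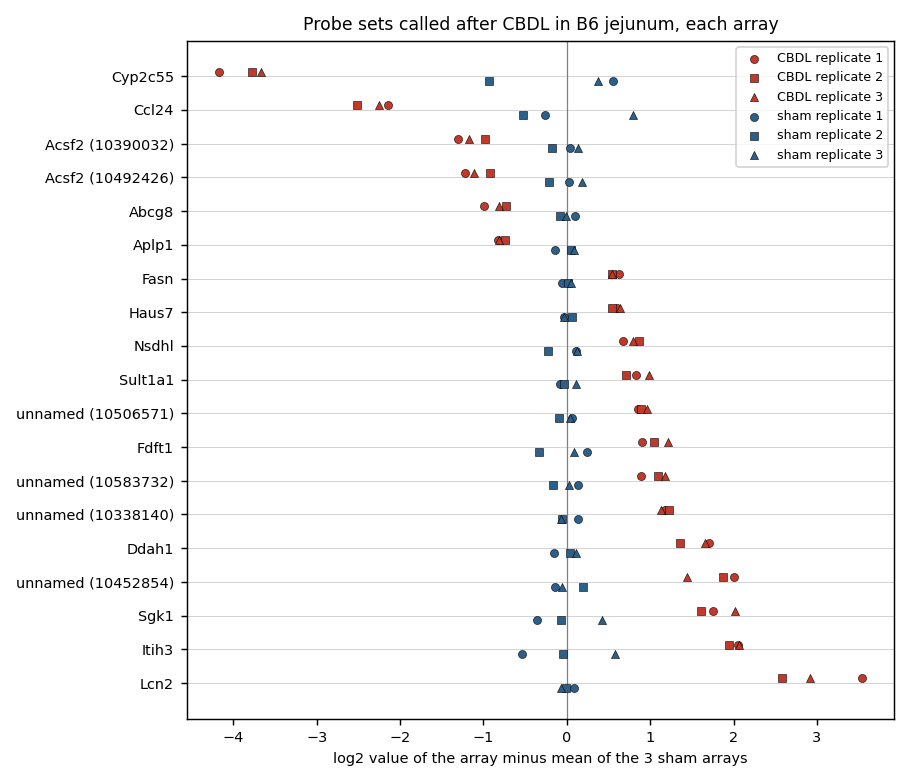
The 19 called probe sets in B6 jejunum, each array's log2 value minus the mean of the 3 sham arrays (horizontal axis, log2 units). Red points are CBDL and blue points sham arrays, with circles, squares and triangles for replicates 1, 2 and 3. CBDL and sham points are apart in every row, from Cyp2c55 at -3.87 to Lcn2 at 3.02.

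The largest change was in Cyp2c55, a cytochrome P450 of the gut and liver that oxidizes fatty acids and drugs. It read 5.08, 5.48 and 5.59 in CBDL and 9.81, 8.33 and 9.63 in sham. The groups lay apart by more than 2 log2 units at their nearest arrays, and the transcript fell by 3.87 on the log2 scale, a 14.6-fold lower signal (standard error 0.34, limma adjusted p = 0.00755). The fold change in A/J was -1.35 and the test of the strain difference gave an adjusted p of 0.294.

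None of the other P450 genes passed the threshold when all 35556 probe sets were tested. This depended on the probe sets tested. With only those of 1 gene name, P450 genes that passed included Cyp2c66, Cyp4a14 (both limma adjusted p = 0.00928), Cyp1a1 (0.0185) and Cyp2c29 (0.0375). The adjusted p-values below are over all probe sets. Of the 9 family 2 members in the list of xenobiotic metabolism 7 had a fold change below 0, among them Cyp2c55, and 2 above, the higher being Cyp2j6 with 0.25. Cyp2e1 and Cyp2f2, members of the same family in the hepatocyte list, had 1.1 and 0.36. Cyp2c66 read 8.48, 9.48 and 9.55 against 11.9, 10.8 and 11.9 in sham, a log2 fold change of -2.35 (adjusted p = 0.0678), and Cyp2c65 had -1.09 (adjusted p = 0.145). Cyp2b10, the classic target of the constitutive androstane receptor, read 9.84, 10.46 and 10.41 against 11.77, 11.35 and 11.68, a fold change of -1.36 (adjusted p = 0.0616). In each of these the highest CBDL array lay below the lowest sham array. Cyp2c29 was at 5.45, 5.94 and 5.97 in CBDL and at 8.70, 6.58 and 8.85 in sham, so that sham replicate 2 stood closer to the CBDL arrays (log2 fold change -2.26, adjusted p = 0.173). Cyp1a1, of another family and a target of the aryl hydrocarbon receptor, had a log2 fold change of -1.73 (adjusted p = 0.11).

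Over xenobiotic metabolism as a whole, more members lay on the lower side. Of 35 measured genes 1 was called higher and 1 lower, 4 had an unadjusted p under 0.05 with a higher and 9 with a lower value, 23 had a fold change below 0, and the median log2 fold change was -0.11, against -0.0091 over all 19938 genes. Over all genes the unadjusted p was under 0.05 for 4.14% higher and 4.68% lower. The CBDL arrays lay above all sham arrays in 3 of the 35 and below them in 12, where 8.15% and 9.4% of all genes did so. Sult1a1, a phenol sulfotransferase, was the member that rose, from 5.91, 5.96 and 6.10 in sham to 6.82, 6.71 and 6.97 in CBDL (log2 fold change 0.84, standard error 0.12, adjusted p = 0.0499). Mgst1, a microsomal glutathione transferase, and Cyp4b1 had fold changes of 0.94 and 0.84 that did not pass (adjusted p = 0.126 and 0.132).

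Enzymes of cholesterol synthesis stood higher after CBDL along most of the pathway. Of 20 listed genes 17 were measured. By each gene's brightest probe set 1 of them, Nsdhl, was called higher and none lower. An unadjusted p under 0.05 and all 3 CBDL arrays above all 3 sham arrays were found in 15. The array order alone was found in 8.15% of all genes. The median log2 fold change was 0.78, with a range of 0.06 to 1.21, and the median in A/J was 0.84. The list mean was 8.71, 9.06 and 9.13 in CBDL and 8.37, 8.01 and 8.30 in sham. CBDL replicate 1 was the nearest to the sham arrays. Leaving out each array in turn kept the median between 0.69 and 0.96.

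The sequence just upstream of these genes was examined for 2 motifs linked to sterol control, the sterol element TCACNCCAC and the CCAAT box CCAAT that nuclear factor Y binds. Both strands of 300 bases, most of them before each RefSeq start and some after it, were read (GRCm38.p6), and the motifs do not overlap in their letters. Of the 17 measured genes 14 matched the RefSeq promoter table, with 17 promoters, and Fdft1, Fdps and Sqle did not. A CCAAT letter string was present in 14 of the 17 promoters (82.4%), which include all 14 genes, against 12289 of 32851 promoters of the table (37.4%), and TCACNCCAC was present in 1 of 17 (5.88%) against 408 (1.24%). A match is a description of letters and not a bound site. The promoters of Hmgcs1, which holds both motifs, of Nsdhl, called by that probe set, and of Cyp51, the member with the highest fold change, are shown 5′ to 3′ on the strand of the gene, with the matches in capitals (ATTGG is CCAAT on the other strand). Hmgcs1 lies at chr13:119690101-119690400 on the plus strand, Nsdhl at chrX:72918271-72918570 on the plus strand and Cyp51 at chr5:4104648-4104947 on the minus strand.
Hmgcs1: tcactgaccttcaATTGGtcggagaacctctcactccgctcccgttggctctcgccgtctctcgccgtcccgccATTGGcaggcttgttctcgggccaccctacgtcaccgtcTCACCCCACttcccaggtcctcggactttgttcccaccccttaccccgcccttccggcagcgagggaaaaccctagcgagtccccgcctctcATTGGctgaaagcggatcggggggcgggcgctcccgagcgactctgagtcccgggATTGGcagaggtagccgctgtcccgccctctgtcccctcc
Nsdhl: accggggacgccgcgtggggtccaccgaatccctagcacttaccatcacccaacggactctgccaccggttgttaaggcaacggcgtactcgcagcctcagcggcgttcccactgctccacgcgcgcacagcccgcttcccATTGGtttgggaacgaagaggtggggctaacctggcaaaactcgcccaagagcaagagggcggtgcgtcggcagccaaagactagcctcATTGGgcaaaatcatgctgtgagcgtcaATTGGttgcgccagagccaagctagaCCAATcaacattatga
Cyp51: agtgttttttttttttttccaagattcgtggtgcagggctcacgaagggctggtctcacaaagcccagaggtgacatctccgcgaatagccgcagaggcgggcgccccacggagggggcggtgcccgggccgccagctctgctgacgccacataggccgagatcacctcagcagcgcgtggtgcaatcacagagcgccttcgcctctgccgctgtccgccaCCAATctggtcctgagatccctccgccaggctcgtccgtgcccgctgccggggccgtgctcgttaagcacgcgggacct

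In pathway order, Hmgcs1, the synthase that opens the mevalonate route, read 10.03, 10.62 and 10.59 in CBDL and 9.70, 9.37 and 9.69 in sham, a log2 fold change of 0.83 (adjusted p = 0.101). The kinases Mvk and Pmvk and the decarboxylase Mvd had fold changes of 0.70, 0.85 and 0.69. Fdps, which builds farnesyl diphosphate, read 9.11, 9.45 and 9.50 against 8.59, 7.76 and 8.27 (log2 fold change 1.15, adjusted p = 0.0685). None of these 5 reached the threshold, though none had overlapping groups.

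Squalene synthase (Fdft1), the first enzyme committed to sterols, has 2 probe sets with a single name. Probe set 10412909 rose from 8.26, 7.69 and 8.11 to 8.93, 9.06 and 9.23 (log2 fold change 1.05, standard error 0.15, adjusted p = 0.0499), and the brighter 10420730 had a fold change of 1.02 (adjusted p = 0.0852). The next steps, squalene epoxidase (Sqle) and lanosterol synthase (Lss), had fold changes of 0.97 and 0.93 (adjusted p = 0.11 and 0.112).

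Cyp51, the lanosterol demethylase, read 8.13, 8.69 and 8.80 in CBDL and 7.51, 6.95 and 7.54 in sham, the highest fold change of the list at 1.21 (adjusted p = 0.066). Nsdhl, the sterol dehydrogenase of a later step, rose from 8.22, 7.88 and 8.24 to 8.78, 8.98 and 8.91 (log2 fold change 0.78, standard error 0.11, adjusted p = 0.0499). Groups overlapped in Ebp and Sc5d, both late steps of the pathway, with fold changes of 0.23 and 0.06. The early and middle enzymes thus had higher fold changes than these late ones, while Dhcr7, the last reductase, had 0.48.

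**Figure D2:**
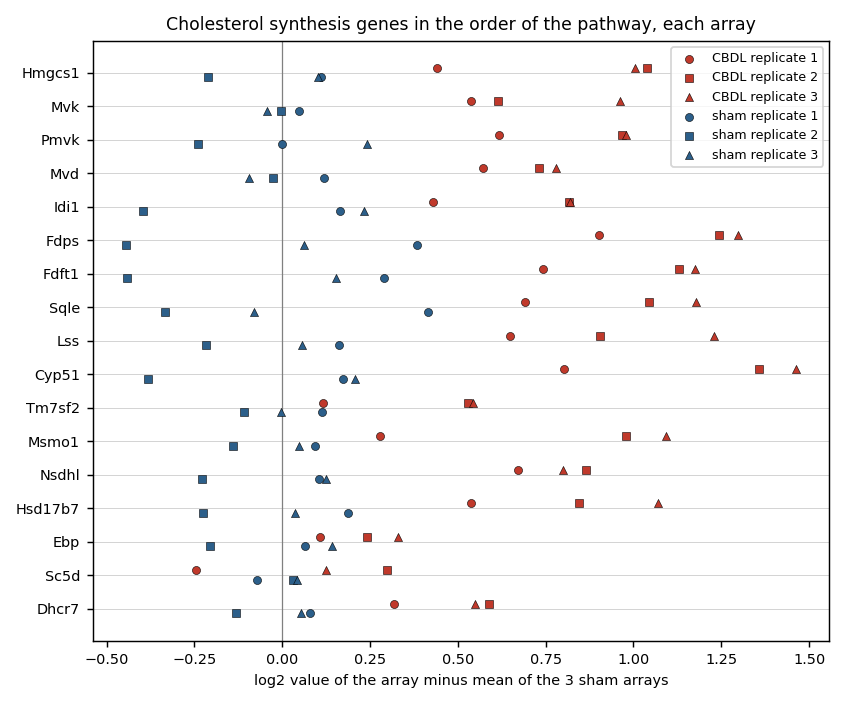
The 17 measured genes of cholesterol synthesis in pathway order, each B6 array's log2 value minus the mean of the 3 sham arrays. Red points are the 3 CBDL arrays and blue points the 3 sham arrays, with a shape for each replicate number. Red lies above blue in 15 genes and the groups overlap in Ebp and Sc5d.

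Regulators and fatty acid enzymes around this pathway gave a mixed picture. Of 20 measured genes of sterol sensing, uptake and fatty acid synthesis 1 was called higher, and the median was 0.16. At an unadjusted p under 0.05, 5 were higher and 1 lower, beside 4.14% and 4.68% of all genes. CBDL arrays lay above all sham arrays in 7 and below in 1, beside 8.15% and 9.4% of all genes. Fatty acid synthase (Fasn) rose from 7.81, 7.88 and 7.92 to 8.50, 8.42 and 8.41 (log2 fold change 0.57, standard error 0.08, adjusted p = 0.0499). Srebf2, which encodes SREBP2, read 9.22, 9.21 and 9.36 against 8.79, 8.55 and 8.73 (log2 fold change 0.57, adjusted p = 0.0673). Insig1, which holds SREBP in the endoplasmic reticulum, had a fold change of 0.88 (adjusted p = 0.136). Scd2, a fatty acid desaturase, had -0.62 (adjusted p = 0.388).

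Among the transporters of sterol 1 gene was called. Abcg8, which pairs with Abcg5 to pump sterol back into the lumen, fell from 10.10, 9.91 and 9.98 to 9.01, 9.27 and 9.18 (log2 fold change -0.85, standard error 0.12, adjusted p = 0.0499). Abcg5 read 9.97, 10.42 and 10.44 in CBDL and 11.01, 11.05 and 11.04 in sham, a fold change of -0.76 that missed the threshold (adjusted p = 0.0708). Abca1, the exporter that loads cholesterol onto lipoprotein, had -1.46 (adjusted p = 0.101), and Npc1l1, the sterol uptake transporter, had -0.61 (adjusted p = 0.323). In these 4 genes no CBDL array reached the lowest sham array. Of the 20 measured genes of lipid absorption and sterol efflux 1 was called lower and none higher, and the median was -0.05. CBDL arrays lay below all sham arrays in 9 and above in 2, beside 9.4% and 8.15% of all genes.

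Bile acid sensing and transport held no called gene among 14. At an unadjusted p under 0.05, 2 were higher and 2 lower, beside 4.14% and 4.68% of all genes. Groups were non-overlapping in 3 and 3, beside 8.15% and 9.4%. Nr1h4, the farnesoid X receptor, read 7.95, 7.62 and 7.79 in CBDL and 7.13, 6.92 and 7.01 in sham (log2 fold change 0.77, adjusted p = 0.126). Its target Nr0b2, the small heterodimer partner, read 4.97, 5.003 and 5.12 against 6.31, 5.39 and 5.47, with sham replicate 1 well above the other two (log2 fold change -0.69, adjusted p = 0.501). The receptor and its target thus had fold changes of opposite sign, neither past the threshold.

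Acute phase genes, which the liver and inflamed epithelia turn on, had fold changes above 0 in 24 of 25 measured members. Of the 25, 2 were called higher and none lower, and the median log2 fold change was 1.78. An unadjusted p under 0.05 was found in 19, all higher, and CBDL arrays above all sham arrays in 18. Over all genes the shares were 4.14% and 8.15%. Lcn2, lipocalin 2, which binds bacterial siderophores, rose from 5.31, 5.21 and 5.15 to 8.77, 7.81 and 8.14 (log2 fold change 3.02, standard error 0.41, adjusted p = 0.0499). Its range over the sham arrays was 0.16, against 1.12 for Itih3. Itih3, a chain of the inter-alpha-trypsin inhibitor, rose from 5.56, 6.06 and 6.68 to 8.16, 8.05 and 8.17 (log2 fold change 2.02, standard error 0.27, adjusted p = 0.0499). Without sham replicate 3 its fold change was 2.31 (adjusted p = 0.00725).

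Several more members did not pass, among them Lrg1, Apcs and ceruloplasmin just outside the threshold and haptoglobin further from it. Lrg1, a leucine-rich glycoprotein of plasma, read 8.12, 7.85 and 7.94 against 4.77, 5.85 and 6.32 (log2 fold change 2.32, adjusted p = 0.052), and was called without sham replicate 3 (2.66, adjusted p = 0.013). Apcs, serum amyloid P, read 5.88, 6.09 and 6.01 against 4.34, 4.45 and 4.27 (log2 fold change 1.64, adjusted p = 0.0592). Ceruloplasmin (Cp), a copper carrier, read 8.49, 9.09 and 8.67 against 6.61, 6.91 and 7.45 (log2 fold change 1.76, adjusted p = 0.052), and was also called without that array. Haptoglobin (Hp), which binds free hemoglobin, read 9.95, 9.84 and 9.99 in CBDL and 5.47, 7.76 and 8.34 in sham, a fold change of 2.74 (adjusted p = 0.145) that was 3.31 without sham replicate 3 (adjusted p = 0.0535). Every CBDL array was above every sham array. Over the list, the median of the CBDL mean minus each sham array was 2.27, 1.58 and 1.13 for sham replicates 1, 2 and 3. Without sham replicate 3 the median fold change was 2.06 with 8 members called. That array was the highest sham array in 14 of the 25 members, so leaving it out raises their fold changes. Without sham replicate 1 or 2, or CBDL replicate 1, 2 or 3, 0 members were called, with medians of 1.57 to 1.89.

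Genes of hepatocyte secretion and metabolism differed by sham array more than by operation. Hepatocyte plasma proteins had no called gene among 31 and a median of 1.05. CBDL arrays lay above all sham arrays in 10 members, beside 8.15% of all genes. Sham replicate 3 was the highest sham array in 29 of the 31. The median of the CBDL mean minus each sham array was 1.75 for replicate 1, 1.13 for replicate 2 and 0.02 for replicate 3. Hepatocyte enzymes and transporters, 35 genes with none called and a median of 0.52, had corresponding medians of 1.06, 0.82 and -0.19. In bulk tissue, fewer cells of a type and less RNA per cell cannot be told apart, and whether liver RNA reached the jejunal samples was not tested.

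Albumin (Alb), the main plasma protein, read 11.85, 12.46 and 12.08 in CBDL and 10.69, 11.61 and 12.28 in sham (log2 fold change 0.60, adjusted p = 0.935). Sham replicate 3 lay within the CBDL range. Ahsg, fetuin A, read 9.995, 10.67 and 10.31 against 6.75, 7.71 and 9.83 (log2 fold change 2.23, adjusted p = 0.308). Cyp2e1, an ethanol-inducible P450, read 9.01, 9.18 and 9.06 against 6.32, 7.88 and 9.75, with sham replicate 3 above all CBDL arrays. Transthyretin (Ttr) read 8.66, 9.77 and 9.40 against 7.89, 8.72 and 10.07, and Apoa2 read 9.14, 9.71 and 9.52 against 8.48, 9.27 and 9.97. In both, sham replicate 3 was above every CBDL array. Their fold changes were 0.38 and 0.22, which turned to -0.12 and -0.16 without sham replicate 1.

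Some hepatocyte genes kept the groups apart in spite of the sham spread. Bhmt, which remethylates homocysteine in the liver, read 10.25, 10.06 and 9.84 in CBDL and 5.69, 6.98 and 8.27 in sham (log2 fold change 3.07, adjusted p = 0.0543), and was called without sham replicate 3 (adjusted p = 0.00287). Mat1a, the liver methionine adenosyltransferase, read 9.31, 8.85 and 9.03 against 5.06, 5.66 and 7.87 (log2 fold change 2.86, adjusted p = 0.112), and was likewise called without that array. Cyp7a1, the rate-limiting enzyme of bile acid synthesis, read 5.21, 6.06 and 5.78 against 4.01, 3.91 and 4.62 (log2 fold change 1.5, adjusted p = 0.166). Of the 67 probe sets called without sham replicate 3, 62 were higher and 5 lower, and 15 of the 19 original calls were among them. They held 55 distinct named genes, 25 of them in the 3 liver lists, which hold 91 of all 19938 genes. Sham replicate 3 was the highest sham array in 29 of 31 plasma proteins and 30 of 35 hepatocyte enzymes. Leaving it out raises the fold changes of those genes, so these calls are not independent of that choice.

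**Figure D3:**
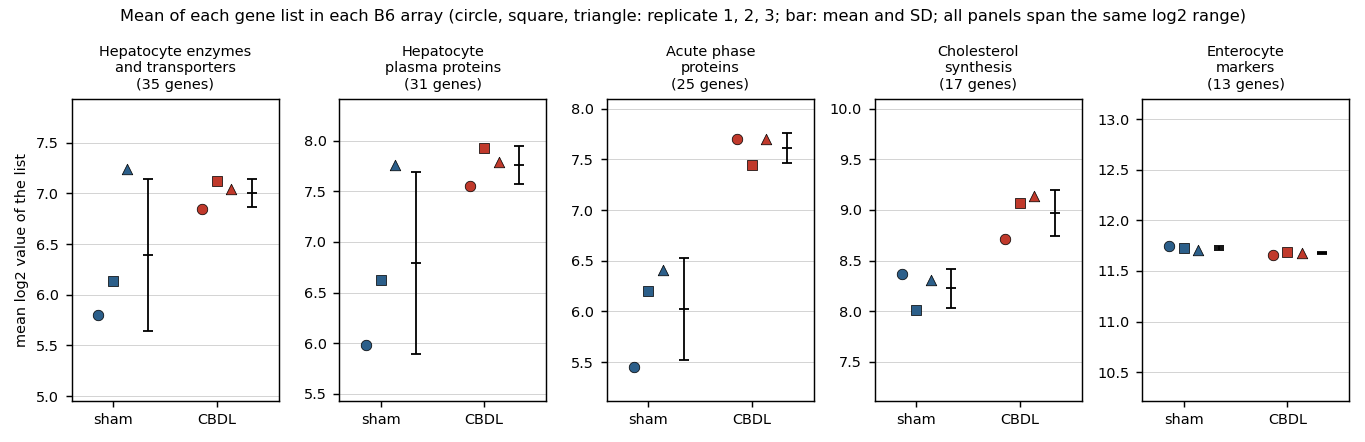
Mean log2 signal of 5 gene lists in each B6 array, one panel per list, all with the same vertical span. Points are arrays, with a shape for each replicate number, and bars show the mean and SD of the 3 arrays of each group. For hepatocyte enzymes and plasma proteins sham replicate 3 lies at or near the CBDL arrays, whereas enterocyte markers are level in all 6 arrays.

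The major urinary proteins (Mup) are pheromone carriers that the mouse liver makes. Mup3 read 6.12, 6.03 and 5.36 in CBDL and 7.17, 8.62 and 10.50 in sham (log2 fold change -2.93, adjusted p = 0.162). The lowest sham array was above every CBDL array, and sham replicate 3 was the highest of all 6. Without it the fold change was -2.06 (adjusted p = 0.152). In A/J the fold change was 2.80, and the difference between strains of -5.73 did not pass (adjusted p = 0.134). Mup21 and Mup5 lay between 2.64 and 4.83 in the B6 arrays, both highest in sham replicate 3, with fold changes of -0.91 and -0.41. None of these Mup probe sets was called. Other family members that the study lists, among them Mup1, Mup2 and Mup20, are not described here. Of the 35 hepatocyte enzymes and transporters 7 also had a fold change below 0, the lowest being Ugt2b1, a glucuronosyltransferase, with -1.29 and a sham replicate 3 of 6.94 above the other 5 arrays.

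Probe sets of the Serpina1 family, which encodes alpha-1-antitrypsin, were not called either. Serpina1c read 9.50, 9.92 and 9.70 in CBDL and 8.07, 9.31 and 10.86 in sham, a log2 fold change of 0.30 (adjusted p = 0.967). Its CBDL arrays sat inside the sham range. Serpina1d read 7.06, 7.76 and 7.46 against 5.88, 6.91 and 8.28 (log2 fold change 0.41), and the 2 probe sets shared by the Serpina1a to Serpina1e genes had 0.13 and 0.44. Without sham replicate 1 these 4 fold changes turned to between -0.40 and -0.082. The copies are near-identical, so a value for a single member is uncertain. Serpina1f, at 3.64 to 4.10 in all 6 arrays, had -0.11. St14, the epithelial protease matriptase, read 10.30, 10.35 and 10.32 in CBDL and 10.18, 10.06 and 10.09 in sham, a fold change of 0.21 (adjusted p = 0.606).

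Targets of the glucocorticoid receptor included 2 called genes. Of 17 measured, 2 were called higher and none lower, and the median log2 fold change was 0.84. An unadjusted p under 0.05 was found in 11, all higher, beside 4.14% of all genes. CBDL arrays lay above all sham arrays in 10, beside 8.15% of all genes. Sgk1, a kinase that raises sodium uptake in epithelia, rose from 8.05, 8.33 and 8.83 to 10.16, 10.01 and 10.43 (log2 fold change 1.79, standard error 0.26, adjusted p = 0.0499). Sult1a1 is the other. Fkbp5, a chaperone of the receptor itself, read 9.81, 9.27 and 9.88 against 7.36, 7.18 and 6.42 (log2 fold change 2.67, adjusted p = 0.11). Per1, which also belongs to the clock, had 0.85 (adjusted p = 0.198), beside -0.79 for the clock repressor Nr1d1 (adjusted p = 0.186). Tat, another member, is also a hepatocyte enzyme and read 5.62, 6.30 and 7.56 in sham against 8.16, 8.89 and 8.77.

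Fatty acid oxidation gave 1 call, in the opposite direction to most of its list. Acsf2, a mitochondrial acyl-CoA synthetase, has 2 probe sets, and both fell. Probe set 10390032 read 7.00, 7.33 and 7.15 against 8.36, 8.14 and 8.45 (log2 fold change -1.16), and 10492426 read 7.23, 7.52 and 7.33 against 8.47, 8.24 and 8.63 (-1.09, standard error 0.16), both with an adjusted p of 0.0499. Cyp4a14, a fatty acid hydroxylase under the receptor PPARA, read 8.06, 7.28 and 7.06 against 3.75, 4.06 and 4.70 (log2 fold change 3.30, adjusted p = 0.0685). Pdk4, which shuts pyruvate out of oxidation, had 1.80 (adjusted p = 0.126), and Angptl4, an inhibitor of lipoprotein lipase, 1.43 (adjusted p = 0.177). Of 24 measured genes 10 had CBDL arrays above all sham arrays and 2 below, beside 8.15% and 9.4% of all genes. The list median was 0.20.

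Among other called genes, Ccl24, or eotaxin-2, a chemokine that draws eosinophils, fell from 7.85, 7.58 and 8.90 to 5.96, 5.60 and 5.86 (log2 fold change -2.31, standard error 0.29, adjusted p = 0.0499). Its receptor Ccr3 read 4.17, 4.19 and 4.23 against 4.81, 4.87 and 4.79 (log2 fold change -0.63, adjusted p = 0.148), while the eosinophil granule genes Epx and Prg2 were between 3.70 and 4.45 with overlapping groups. Ddah1, which degrades an inhibitor of nitric oxide synthase, rose from 5.92, 6.11 and 6.17 to 7.77, 7.42 and 7.72 (log2 fold change 1.57, standard error 0.21). Aplp1, an amyloid precursor-like protein, fell from 7.74, 7.94 and 7.97 to 7.06, 7.14 and 7.07 (log2 fold change -0.80, standard error 0.11). Haus7, a subunit of the augmin complex of the spindle, rose from 5.66, 5.76 and 5.66 to 6.30, 6.23 and 6.33 (log2 fold change 0.59). Each had an adjusted p of 0.0499.

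A further 4 called probe sets have no gene name in the platform table. Probe set 10452854 read 7.33, 7.21 and 6.77 in CBDL and 5.19, 5.53 and 5.28 in sham (log2 fold change 1.77, standard error 0.17, adjusted p = 0.00755). In A/J its fold change was 0.07, and it is the only one of the 19 called for the difference between strains (1.71, adjusted p = 0.0476). Probe sets 10583732, 10506571 and 10338140 had fold changes of 1.05, 0.90 and 1.18. The last is among the unnamed ones numbered below the first named probe set. All 19 had a fold change of the same sign in A/J, and 13 were called there.

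Genes of T and natural killer (NK) cells, many of which in this tissue lie between epithelial cells, had none called among 29. At an unadjusted p under 0.05, 14 were lower and none higher, beside 4.68% and 4.14% of all genes. The median log2 fold change was -0.31. CBDL arrays lay below all sham arrays in 15, beside 9.4% of all genes. The list mean was 5.56, 5.42 and 5.48 in CBDL and 5.81, 5.86 and 5.93 in sham. Cd3g, a chain of the T cell receptor complex, read 7.22, 7.37 and 7.22 against 7.90, 7.95 and 8.23 (log2 fold change -0.76, adjusted p = 0.0592). Gzma, granzyme A of killer cells, read 8.63, 8.51 and 8.50 against 9.44, 9.53 and 9.71 (log2 fold change -1.01, adjusted p = 0.0852). Nkg7 had -0.81 and Gzmb -0.98. The spread within each group was small beside the gap, and the A/J median was -0.11, a difference between strains that was not tested for the list.

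Antigen presentation followed the same side, with none called among 15 and a median of -0.38. At an unadjusted p under 0.05, 12 were lower, and 12 were non-overlapping and lower, beside 4.68% and 9.4% of all genes. Cd74, the invariant chain of MHC class II, read 9.07, 8.76 and 8.78 against 9.66, 9.34 and 9.65 (log2 fold change -0.68, adjusted p = 0.357), and the class II chain H2-Aa had -0.63 (adjusted p = 0.31). The immunoproteasome subunit Psmb8 had -0.66 (adjusted p = 0.154). Interferon-stimulated genes, 28 measured and none called, had 15 lower at an unadjusted p under 0.05 and none higher, with a median of -0.35. Of the 28, 9 were non-overlapping and lower, beside 9.4% of all genes. Ifit3, an antiviral factor, read 6.40, 6.15 and 5.04 against 7.33, 6.71 and 7.40 (log2 fold change -1.28, adjusted p = 0.259). CBDL replicate 3 was the lowest array for Ifit3 and for the interferon list mean, at 6.33 beside 6.93 and 6.72. Ido1, an interferon-inducible enzyme that degrades tryptophan, read 7.34, 6.77 and 6.57 against 8.52, 8.64 and 8.89 (log2 fold change -1.79, adjusted p = 0.0956).

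Smooth muscle markers were the list with the lowest median in B6. All 9 lay below every sham array, as 9.4% of all genes did, and had an unadjusted p under 0.05 without a call. The median log2 fold change was -1.32. The list mean was 6.72, 6.87 and 7.34 in CBDL and 7.87, 8.49 and 8.07 in sham. Cnn1, calponin of the contractile apparatus, read 5.84, 6.04 and 6.49 against 7.42, 8.17 and 7.67 (log2 fold change -1.63, adjusted p = 0.438). Acta2, smooth muscle actin, read 8.83, 8.84 and 9.48 against 9.999, 10.72 and 10.39 (log2 fold change -1.32, adjusted p = 0.518). In A/J the median was 0.24. The share of the muscle coat in each piece of jejunum was not measured, and its part in the result was not tested.

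**Figure D4:**
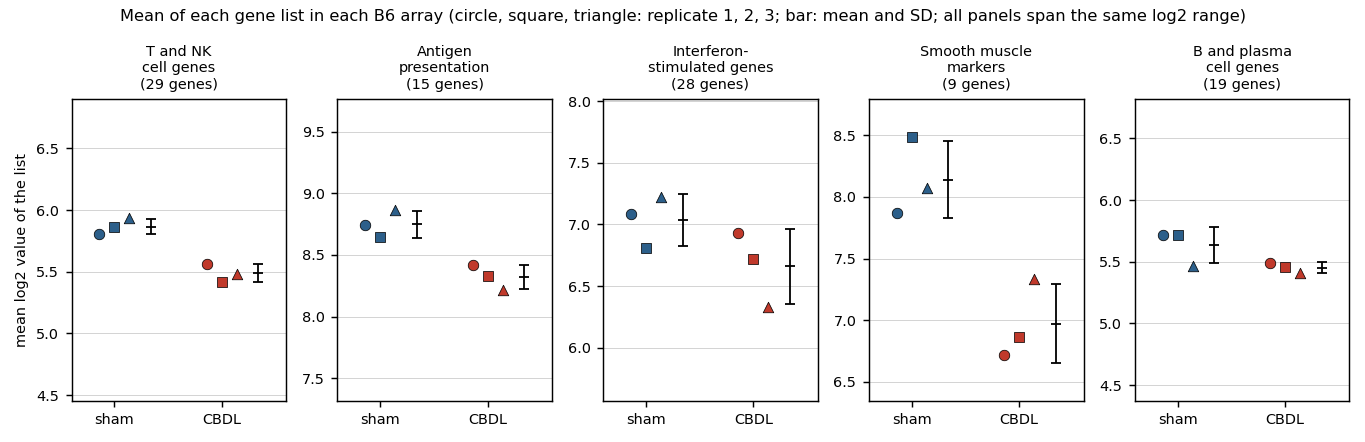
Mean log2 signal of 5 lists in each B6 array: T and NK cell genes, antigen presentation, interferon-stimulated genes, smooth muscle, and B and plasma cell genes. Points are arrays with a shape for each replicate number, bars the mean and SD of 3 arrays. The CBDL and sham arrays do not overlap for T and NK cell genes, antigen presentation and smooth muscle.

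No gene of the lists of Paneth cells, brush border, tight junction or cell cycle was called. Paneth cell and antimicrobial genes, 16 measured, had 4 higher at an unadjusted p under 0.05, 5 with CBDL arrays above all sham arrays and a median of -0.0015. Among them the lectins Reg3g and Reg3b, antibacterial proteins of the crypt and villus, had fold changes of 1.76 and 1.95 (adjusted p = 0.177 and 0.241). Reg3b read 13.28, 13.17 and 12.84 against 11.60, 12.14 and 9.69, with sham replicate 3 the lowest. Brush border digestion and uptake, 34 genes, had 12 members with CBDL arrays below all sham arrays and 3 above, beside 9.4% and 8.15% of all genes, with 3 lower and none higher at an unadjusted p under 0.05 and a median of -0.07. Enterocyte markers had 7 of 13 below all sham arrays and 1 above, with a median of -0.09. Cubn, cubilin, the receptor for vitamin B12 with intrinsic factor, read 9.999, 9.55 and 9.55 against 10.88, 11.35 and 11.30 (log2 fold change -1.47, adjusted p = 0.0678). Of 28 tight junction and adhesion genes 10 had CBDL arrays below all sham arrays and 2 above, with 4 lower and 3 higher at an unadjusted p under 0.05 and a median of 0.0035, and the claudin Cldn4 had -1.07 (adjusted p = 0.604). Cell cycle and DNA replication, 29 genes, had none at an unadjusted p under 0.05 and none non-overlapping.

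**Figure D5:**
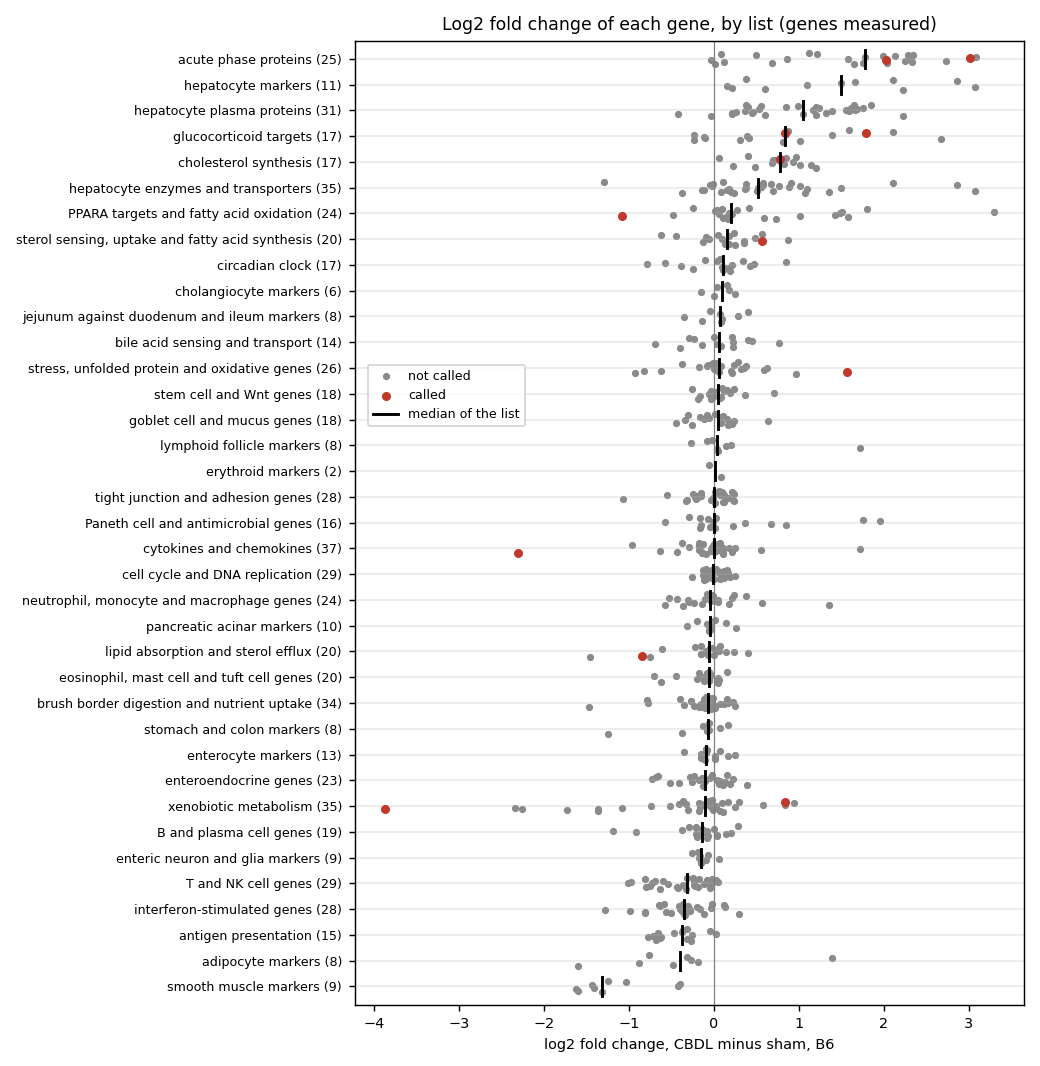
Log2 fold change, CBDL minus sham, in B6 for every measured gene of 37 lists (horizontal axis, log2 units; 26 pathway and 11 marker lists). Grey points are genes, red points called genes, and the black line is the median of the list. Medians run from -1.32 for smooth muscle to 1.78 for acute phase proteins, and most lists lie near 0.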

How the data were processed

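Total RNA from jejunum was hybridized to Affymetrix arrays, 3 per strain and operation. Deposited values are log2 signals, 1 per probe set, summarized by the authors. RMA within Expression Console is the step given by the labels and GCRMA that given by the study's methods, with versions not given in the sources used here. No depth applies to arrays, whose number limits the precision. The members and lists were chosen with earlier results of these data known.

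Values were used as deposited. Limma 3.58.1 in R 4.3.3 fitted 1 mean per group over all 12 arrays, with empirical Bayes variances and Benjamini-Hochberg adjustment over 35556 probe sets. The platform table gives 1 name to 21789 probe sets, several to 1621 and none to 12146. In the lists each gene enters by its brightest probe set with 1 name. Named genes were all called ones, the 12 highest and 12 lowest fold changes among non-overlapping probe sets with 1 name and an unadjusted p under 0.01, up to 4 members of smallest unadjusted p in each list, the hepatocyte markers, Lcn2, St14 and the Mup and Serpina1 families. Acta2, Adipoq, Angptl4, Apcs, Car1, Cd74, Cnn1, Cxcl13, Cyp2c65, Cyp2f2, Cyp2j6, Cyp4b1, Dhcr7, Ebp, Hmgcs1, Lss, Mgst1, Mvd, Mvk, Pmvk, Sc5d, Scd2, Slc10a2, Sqle, Tmprss15 and Ugt2b1 were chosen after their values were seen. Same-numbered CBDL and sham arrays had deviations that correlated at 0.0757, -0.126 and -0.0351, so numbers were not treated as pairs. The model was tested on simulated data for B6, recovering 83 of 100 probe sets changed 2-fold and 97 of 100 changed 4-fold, with 9 false calls. The noise was independent between probe sets, with the same spread in every group, and changed probe sets were drawn from those brighter than the median. Differences shared by many transcripts, such as those among the sham arrays, were not simulated, so this recovery cannot be carried over to the real arrays. Alternatives were other array sets, filters, normalizations, variance settings, a replicate block, a covariate and each array left out. Quantitative PCR, survival and siRNA measurements are not analysed here.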

Additional observations from a re-analysis of the deposited data

Results flagged for a closer look

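The difference between the B6 and the A/J response to CBDL passed the limma test for 2 of the probe sets reported. For Ffar1, a receptor for fatty acids on hormone-secreting cells, the B6 response minus the A/J response was 0.79 on the log2 scale (adjusted p = 0.048). The B6 arrays read 4.68, 4.59 and 4.59 in CBDL and 4.46, 4.45 and 4.40 in sham, a fold change of 0.18 that was not called, and the A/J fold change was -0.61. For the unnamed probe set 10452854 the difference was 1.71 (adjusted p = 0.0476), with 1.77 in B6 and 0.07 in A/J. The cause of either difference was not tested.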

How the results depend on the processing

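The count of 19 called probe sets (13 higher, 6 lower) moved with most settings, and the cause was not tested. It was 1 (1 and 0) from the 6 B6 arrays alone, 45 (27 and 18) without the 30% dimmest probe sets, 163 (87 and 76) with only probe sets of 1 gene name, 31 (19 and 12) after quantile normalization, 3 (2 and 1) with array medians subtracted, 16 (10 and 6) with a trend and robust prior, 167 (84 and 83) with array weights, 20 (4 and 16) with the mean of the hepatocyte enzyme list as a covariate, 12 (8 and 4) for changes of more than 2-fold and 18 (12 and 6) for at least 1.5-fold. An alternative chosen after seeing the data, without the 6617 unnamed probe sets numbered below the first named one, gave 134 (76 and 58). Leaving out 1 array gave 2 to 67 calls, 0 to 62 higher and 1 to 14 lower. With the replicate number as a block (replicate block) limma called 0, 0 higher and 0 lower, with 2182 at an unadjusted p under 0.05; the labels do not say that a number marks shared animals or days. The covariate took the plasma protein median to 0.19 and that of antigen presentation to -0.50. Leaving out 1 array gave medians of -0.39 to -0.26 for T and NK cell genes, 0.63 to 1.41 for plasma proteins, 0.27 to 0.89 for hepatocyte enzymes and 1.57 to 2.06 for acute phase proteins. Fold changes reversed with the covariate for Alb (-0.11), Cyp2e1 (-0.21), Apoa2 (-0.44), Ttr (-0.61), Serpina1c (-0.82), Serpina1d (-0.61) and the shared Serpina1 probe sets 10402409 (-0.72) and 10402399 (-0.50), and without B6 sham replicate 1, the lowest of the values with 1 array left out, for Apoa2 (-0.16, highest 0.58), Ttr (-0.12, highest 0.97), Serpina1c (-0.37, highest 1.02), Serpina1d (-0.16, highest 1.04), 10402409 (-0.40, highest 0.64) and 10402399 (-0.082, highest 1.025). The highest were without B6 sham replicate 3.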

Other observations

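Endocrine, plasma cell and fat genes held further values of note in B6, with no gene of their lists called. Of 23 enteroendocrine genes 14 had a fold change below 0 and 9 above, with a median of -0.10. For 19 B and plasma cell genes the counts were 13 and 6, with a median of -0.13. For 8 adipocyte markers they were 7 and 1, with a median of -0.40 and a highest value of 1.40. Scg2, a granin of hormone-secreting cells, read 5.54, 5.56 and 5.59 in CBDL and 6.15, 6.49 and 6.10 in sham (log2 fold change -0.68, limma adjusted p = 0.0652), and somatostatin (Sst) had -0.65 (adjusted p = 0.461). Jchain, which joins the units of secreted IgA, read 8.60, 9.08 and 8.57 against 10.04, 10.03 and 9.75 (log2 fold change -1.19, adjusted p = 0.168). Il33, an alarm cytokine, had -0.96 (adjusted p = 0.117). Adipoq, which fat cells secrete, read 2.84, 2.92 and 3.38 against 3.33, 5.65 and 4.95, so the groups overlapped through sham replicate 1 (log2 fold change -1.60, adjusted p = 0.31). Dio1, which activates thyroid hormone, read 6.80, 7.47 and 5.95 against 8.68, 8.59 and 8.83 (log2 fold change -1.96, adjusted p = 0.0543). Mt2, a metallothionein, read 10.36, 10.99 and 11.33 against 7.18, 8.67 and 7.59 (log2 fold change 3.08, adjusted p = 0.112).

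The widest range over the sham arrays was not in a liver gene. Tmprss15, enteropeptidase, which activates trypsin and is made in the upper small intestine, read 8.96, 4.19 and 7.39 in B6 sham replicates 1, 2 and 3 and 5.65, 6.87 and 6.80 in CBDL. Car1, a carbonic anhydrase of the colon, read 7.94, 10.28 and 6.65 in sham. Cxcl13, a chemokine of lymphoid follicles, read 9.38, 6.11 and 6.57 in CBDL and 5.38 to 5.81 in sham. It is 1 of the 6 genes with a range of at least 2 over the CBDL arrays. Whether the segment or the follicles sampled differed between arrays was not tested.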
